A study of Homo sapiens with 12 samples.

Results

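The 9 genes described here restrain the cell cycle or answer to p53 and were followed through an androgen treatment of prostate cancer cells: the cyclin-dependent kinase (CDK) inhibitors CDKN1A, CDKN1B, CDKN1C, CDKN2C and CDKN2D, the phosphatase CDKN3, and MDM2, CCNG1 and BTG2. They were listed by name, with earlier results of these data known, and no threshold on a measured value was applied. All 9 were found among 34643 gene symbols and all 9 passed the filter on low counts, which left 15419 genes for testing. The RNA came from LNCaP, an androgen-dependent human prostate cancer cell line that expresses TMEFF2, a transmembrane protein whose silencing the study examined. Cells carried a lentiviral short hairpin RNA (shRNA) that was either scrambled (sh_scramble) or directed against TMEFF2 (sh_TMEFF2), and both had been selected in 1 µg/ml puromycin. After 24 h in hormone-depleted serum they received 10 nM dihydrotestosterone (DHT), the most potent natural androgen, or the ethanol vehicle for another 24 h. This gave 4 groups of 3 libraries, 12 in all, with 19450866 to 22612046 estimated counts each (median 21194622). The shRNA cells stemmed from 2 separate transductions, the labels do not say which library belongs to which transduction nor which TMEFF2 hairpin was used, and p-values therefore measure the spread between these libraries only.

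Progression through the cell cycle is driven by CDKs bound to cyclins. The Cip/Kip inhibitors p21 (CDKN1A), p27 (CDKN1B) and p57 (CDKN1C) bind cyclin-CDK complexes, whereas the INK4 inhibitors p18 (CDKN2C) and p19 (CDKN2D) bind CDK4 and CDK6. CDKN3 is a phosphatase that removes an activating phosphate from CDK2 and CDK1, and its transcript is abundant in dividing cells. The transcription factor p53 raises CDKN1A, BTG2, CCNG1 and MDM2, and MDM2 in turn is the ubiquitin ligase that marks p53 for degradation. In prostate cancer cells androgen drives proliferation through the androgen receptor, and CDK inhibitors restrain the entry into division that follows. All 9 are protein-coding genes and lie on 7 chromosomes (GRCh38), with CDKN1A at chr6:36676460-36687337, CDKN1B at chr12:12685498-12722369, CDKN1C at chr11:2883213-2885775, CDKN2C at chr1:50960745-50974634, CDKN2D at chr19:10566460-10569059, CDKN3 at chr14:54396849-54420218, MDM2 at chr12:68808177-68845544, CCNG1 at chr5:163437569-163446151 and BTG2 at chr1:203305491-203309602.

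Levels are given as CPM, counts scaled to 1000000 per library, normalised by the trimmed mean of M-values (TMM), and a gene was called when its fold change was at least 1.5 and its adjusted p at most 0.05 in edgeR's quasi-likelihood test. The RNA held the markers of prostate luminal cells and few of other cell types. The 10 luminal markers, led by FOLH1 without DHT and by KLK3 with DHT, differed by line. Without DHT they summed to between 6948 and 7195 CPM in sh_scramble and between 4472 and 5068 CPM in sh_TMEFF2, and with DHT to between 14453 and 16110 CPM and between 5455 and 6944 CPM. With DHT 6 of the 10 were called lower in sh_TMEFF2, against 3.74% of all genes, and their part in the differences between the lines given below was not tested. The 4 basal markers summed to at most 1.89 CPM, with KRT5 at 0 in every library. The 4 leukocyte markers summed to between 8.01 and 12.9 CPM, with PTPRC or CD68 highest and CD3E at 3 counts or fewer in each library. The 7 fibroblast and smooth muscle markers summed to between 21 and 44.7 CPM, led by COL1A1, and the 3 endothelial markers to between 13.2 and 29.5 CPM, led by VWF, with CDH5 at 3 counts or fewer.

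The silenced gene was examined first. TMEFF2 stood at 77.8, 73.8 and 103 CPM in the sh_scramble libraries without DHT and at 68.6, 39.4 and 81.7 CPM in the sh_TMEFF2 libraries without DHT. With DHT it stood at 173, 117 and 169 CPM against 142, 90.1 and 115 CPM. The lines overlapped in both media. The log2 difference was -0.43 (SE 0.249, adjusted p = 0.503) without DHT and -0.41 (SE 0.245, adjusted p = 0.304) with it. By replicate number, each sh_TMEFF2 library lay below its sh_scramble counterpart in both media. The difference was called in none of 22 alternatives, the replicate block among them (lowest adjusted p 0.124 without DHT and 0.0689 with it). Lower TMEFF2 RNA was thus not shown beyond the spread between these libraries, and the lines are named by their labels. The paper reports silencing of TMEFF2 in LNCaP cells, with a Western blot of the protein and mRNA levels in its supplement. DHT raised TMEFF2 1.80-fold in sh_scramble and 1.83-fold in sh_TMEFF2 libraries (adjusted p = 0.0227 and 0.0377), calls lost in 5 and 7 of 22 alternatives (adjusted p up to 0.08 and 0.113). In sh_scramble these include leaving out replicate 1 or 2 without DHT or replicate 1 or 3 with it, and in sh_TMEFF2 the same 4 replicate numbers.

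MDM2 needs a fact about the table before its values. The deposited table holds 2 columns for each library, which were summed. For MDM2 the columns disagreed in the 3 sh_TMEFF2 libraries without DHT and in no other group. There the first columns gave 52.8, 59.7 and 45.3 CPM and the second columns 297, 214 and 120 CPM, as CPM of each column's own total. The second column was 2.65 to 5.63 times the first in these libraries and 0.688 to 1.26 times the first in the other 9. Of 11160 genes with a mean of at least 5 CPM, 8 showed a second column over 2-fold above the first in all 3 of these libraries after adding 0.5 CPM to each, MDM2 among them, while each of the other groups held 1 such gene. CDKN1A and BTG2 lay close to the line of equal columns in all libraries. The tests of MDM2 that involve this group are therefore given for each column, and the cause of the disagreement was not tested.

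**Figure D1:**
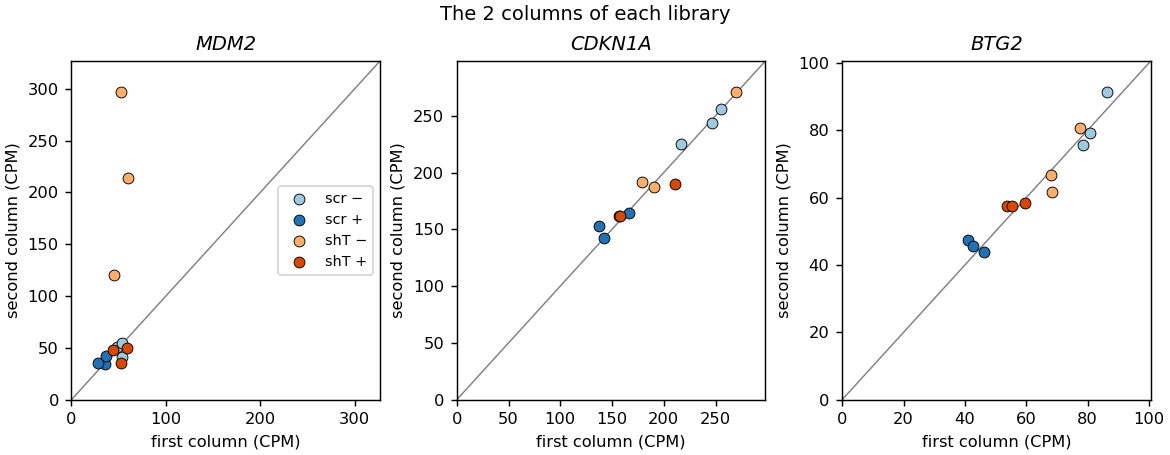
First against second column of each library for MDM2, CDKN1A and BTG2, in CPM of the column's own total; each point is 1 library, the grey line marks equal columns, scr and shT stand for sh_scramble and sh_TMEFF2, and − and + for vehicle and DHT. The 3 sh_TMEFF2 libraries without DHT leave the line for MDM2, with second columns at 120 to 297 CPM.

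The 2 stretches of promoter sequence that follow are printed because they hold the binding motifs for which these genes are textbook cases, from RefSeq promoter windows (GRCh38.p14) cut where the first annotated exon begins. MDM2 is transcribed from an upstream start and from a downstream start that p53 controls. Its downstream window, chr12:68808767-68809001 on the plus strand, lies within the MDM2 gene and in no annotated exon, and the capitals mark the 20-base match to the p53 site, allowing 2 mismatches. CDKN3 is shown at chr14:54396757-54396848 on the plus strand, just upstream of its first exon, with capitals on CCAAT, the box bound by NF-Y, and on TTCAAA, the reverse complement of TTTGAA, a core of the cell cycle homology element.
MDM2: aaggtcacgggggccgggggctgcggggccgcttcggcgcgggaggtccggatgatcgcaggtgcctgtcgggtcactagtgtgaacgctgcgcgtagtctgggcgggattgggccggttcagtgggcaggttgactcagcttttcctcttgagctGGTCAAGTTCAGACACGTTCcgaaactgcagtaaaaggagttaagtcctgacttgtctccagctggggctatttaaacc
CDKN3: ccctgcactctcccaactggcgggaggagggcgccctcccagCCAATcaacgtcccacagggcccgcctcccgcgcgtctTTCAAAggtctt
Among 35114 windows of 250 bases before a start, 0.561% held such a p53 match, 32% held CCAAT and 13.3% held TTTGAA, each searched on both strands. RefSeq windows were matched for 8 of the 9 genes, CDKN1C not among them. Of these only MDM2 held the p53 match and only CDKN3 held TTTGAA, while CCAAT was in at least 1 window of 7 of the 8, all but CDKN1A. The letters AGAACA, the hexamer of the androgen response element, were in 12.4% of all windows and in none of these genes' windows. These matches describe the letters of 250 bases and not binding.

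DHT lowered BTG2 and CDKN1A in sh_scramble cells. BTG2, an antiproliferative gene induced by p53, stood at 88, 80 and 74.6 CPM without DHT and at 46, 45.1 and 46.5 CPM with DHT. The groups did not overlap, and the log2 fold change was -0.82 (SE 0.0853, adjusted p = 1.97e-05), a 1.76-fold lower level. CDKN1A, the main CDK inhibitor induced by p53, stood at 244, 255 and 213 CPM without DHT and at 151, 169 and 146 CPM with DHT. Again each DHT library lay below each vehicle library, and the log2 fold change was -0.61 (SE 0.144, adjusted p = 0.00759). This is a 1.52-fold change, just past the limit, and leaving out replicate 2 of sh_scramble without DHT (-0.55) or replicate 3 of sh_scramble with DHT (-0.56) took it below 1.5-fold. Thus 2 of the 9 genes were called lower and 0 higher, against 6.45% of all genes tested called lower and 5.45% called higher. At the adjusted p alone, without a fold limit, 4 of the 9 were lower against 12.6% of all genes.

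Those that passed the adjusted p alone were CDKN1B and CCNG1. CDKN1B stood at 82.3, 88.7 and 87.5 CPM without DHT and at 69.2, 68 and 72.8 CPM with it, a log2 fold change of -0.30 (SE 0.0587, adjusted p = 0.0023). CCNG1, which encodes cyclin G1, stood at 401, 366 and 367 CPM without DHT and at 336, 312 and 314 CPM with it, a log2 fold change of -0.24 (SE 0.0571, adjusted p = 0.0082). The groups of both genes did not overlap. MDM2 stood at 49, 54.5 and 46.4 CPM without DHT and at 37.1, 40.2 and 32.3 CPM with it in sh_scramble libraries. Its log2 fold change of -0.45 (SE 0.203) from the summed columns missed the threshold (adjusted p = 0.119). From the first columns alone it was -0.56 (adjusted p = 0.0108), under 1.5-fold, and from the second alone -0.34 (adjusted p = 0.386). The remaining genes were not called in sh_scramble: CDKN3 at 0.36 (adjusted p = 0.113), CDKN2D at 0.34 (adjusted p = 0.142), CDKN1C at 0.18 (adjusted p = 0.79) and CDKN2C at 0.02 (adjusted p = 0.939) on the log2 scale.

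**Figure D2:**
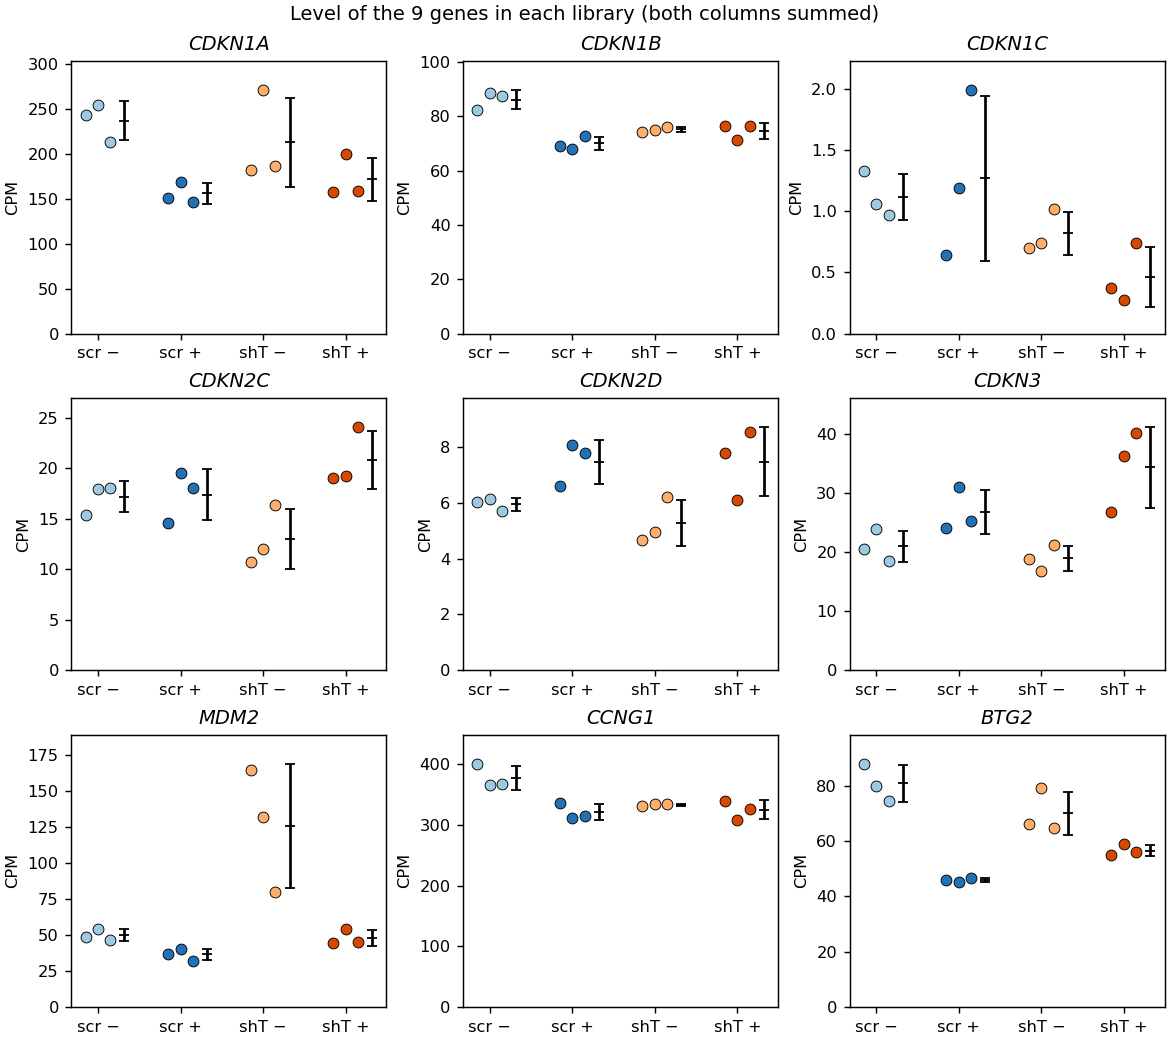
TMM-normalised CPM of the 9 genes in every library, with both columns of a library summed; points are libraries, bars are the mean ± SD of 3, axes start at 0, scr and shT stand for sh_scramble and sh_TMEFF2, and − and + for vehicle and DHT. BTG2 and CDKN1A are lower with DHT in sh_scramble, CDKN3 and CDKN2C are higher with DHT in sh_TMEFF2, and MDM2 of sh_TMEFF2 without DHT carries the second columns described in the text.

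In sh_TMEFF2 cells the genes raised by DHT were CDKN3 and CDKN2C. CDKN3 stood at 18.8, 16.9 and 21.2 CPM without DHT and at 26.8, 36.3 and 40.2 CPM with it, a log2 fold change of 0.86 (SE 0.156, adjusted p = 0.00424). CDKN2C, an inhibitor of CDK4 and CDK6, stood at 10.7, 12 and 16.4 CPM without DHT and at 19, 19.2 and 24.1 CPM with it, a log2 fold change of 0.67 (SE 0.166, adjusted p = 0.0195). All libraries with DHT lay above all without it for both genes. The CDKN2C call was lost without replicate 1 or 2 of the group without DHT or replicate 3 of the group with it (adjusted p from 0.0791 to 0.0874), while the CDKN3 call held in all 22 alternatives. CDKN2D, the other INK4 gene, stood at 4.67, 4.95 and 6.2 against 7.8, 6.12 and 8.54 CPM, and its log2 fold change of 0.50 was not called (SE 0.162, adjusted p = 0.0601).

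The genes lower with DHT in sh_scramble had log2 fold changes between -0.31 and -0.01 in sh_TMEFF2. BTG2 stood at 66.2, 79.1 and 64.8 CPM without DHT and at 55.1, 58.8 and 55.9 CPM with it, a log2 fold change of -0.31 (SE 0.0845) that passed the adjusted p of 0.0316 but not 1.5-fold. CDKN1A stood at 182, 271 and 187 CPM without DHT and at 158, 200 and 159 CPM with it. Those groups overlapped and the log2 fold change was -0.31 (SE 0.144, adjusted p = 0.186). CDKN1B gave -0.01 (SE 0.0585, adjusted p = 0.946) and CCNG1 gave -0.04 (SE 0.0571, adjusted p = 0.724). CDKN1C, the least abundant of the 9, gave -0.79 (SE 0.469, adjusted p = 0.304). For MDM2 the summed columns gave 165, 132 and 79.8 CPM without DHT and 44.2, 54.1 and 45.4 CPM with it, a log2 fold change of -1.39 (SE 0.201, adjusted p = 0.0012). With the first columns alone this value was -0.04 (adjusted p = 0.908) and with the second columns alone -2.22 (adjusted p = 0.000474), so the call rests on the second columns. In total 2 of 9 genes were called higher, against 3.28% of all genes, and 1, MDM2, lower, against 1.6%, and with the first columns alone 0 were called lower. At the adjusted p alone 2 were lower, against 5.21% of all genes.

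**Figure D3:**
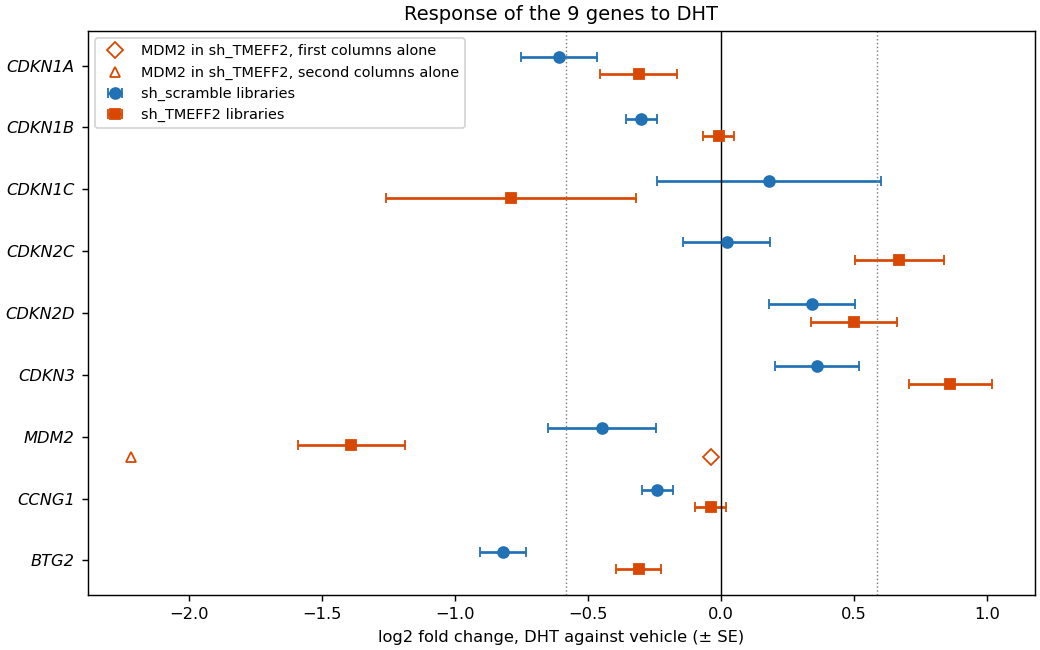
Log2 fold change (± SE) of each gene with DHT against vehicle, in sh_scramble (circles) and sh_TMEFF2 libraries (squares); dotted lines mark 1.5-fold, and open symbols give MDM2 in sh_TMEFF2 from the first or second columns alone. BTG2 lies at -0.82 and -0.31, CDKN3 at 0.36 and 0.86, and the MDM2 values from the single columns lie at -0.04 and -2.22.

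Whether DHT acted differently in the lines was tested directly as the difference of the log2 responses, called at an adjusted p of at most 0.05. BTG2 was the only gene of the 9 called, with a difference of 0.51 (SE 0.12, adjusted p = 0.0287), the level falling less in sh_TMEFF2. Over the alternatives this difference ranged from 0.44 to 0.61 with an adjusted p of up to 0.0746, and 10 of the 12 fits without 1 library missed the threshold. Thus 1 of 9 genes was called higher and 0 lower, against 1.65% and 3.29% of all genes. CDKN1B gave 0.29 (SE 0.0829, adjusted p = 0.0678), and was called by DESeq2 (0.30, adjusted p = 0.0161), by library size (0.36, adjusted p = 0.0317) and among genes over 5 CPM (0.31, adjusted p = 0.0354). CDKN2C gave 0.65 (SE 0.234, adjusted p = 0.154), CDKN3 0.50 (SE 0.221, adjusted p = 0.254) and CDKN1A 0.30 (SE 0.203, adjusted p = 0.514). CDKN2C was called with the replicate block (0.66, adjusted p = 0.0362) and without replicate 3 of sh_TMEFF2 without DHT (0.86, adjusted p = 0.0376). CCNG1 gave 0.20 (adjusted p = 0.212), CDKN2D 0.16 (adjusted p = 0.787) and CDKN1C -0.97 (adjusted p = 0.479). In the main fit, a call in one line and none in the other is therefore no shown difference for CDKN1A, CDKN2C and CDKN3. The difference for MDM2 was -0.94 (adjusted p = 0.0825) from the summed columns, 0.53 (adjusted p = 0.18) from the first and -1.89 (adjusted p = 0.0121) from the second. From the sum it was called by DESeq2 (-0.93, adjusted p = 0.0128), without a filter (adjusted p = 0.0276), with the replicate block (adjusted p = 0.0406) and without replicate 3 of sh_TMEFF2 without DHT (-1.18, adjusted p = 0.00339).

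The lines were also compared at each DHT level, with the same libraries as above. Without DHT, 1 of 9 genes was called higher in sh_TMEFF2, against 0.298% of all genes, and 0 lower, against 0.272%. That gene was MDM2, at 1.33 (SE 0.201, adjusted p = 0.00799) from the summed columns. From the first columns alone it was 0.04 (adjusted p = 0.958), with no gene of the 9 called, and from the second alone 2.08 (adjusted p = 0.00164). The summed call was also lost without replicate 1 of sh_scramble (1.32, adjusted p = 0.0503) and when these 6 libraries were fitted alone (1.33, adjusted p = 0.0522). The 11 other genes within 1 Mb that were tested gave log2 differences from -0.66 to 0.08, and CPM, which overlaps MDM2 on the opposite strand, gave -0.66 (adjusted p = 0.504). With DHT, 0 of 9 genes were called higher, against 3.03% of all genes, and 1 lower, against 3.74%; at the adjusted p alone 1 was higher, against 6.93%. The gene above was BTG2, at 45.9 ± 0.736 CPM in sh_scramble and 56.6 ± 1.93 CPM in sh_TMEFF2 (SD, n = 3), a log2 difference of 0.30 (SE 0.0853, adjusted p = 0.0298) under 1.5-fold. CDKN1C, called lower, is expressed at about 1 CPM: it stood at 0.639, 1.19 and 1.99 CPM, or 13, 24 and 40 counts, in sh_scramble and at 0.37, 0.276 and 0.742 CPM, or 8, 6 and 17 counts, in sh_TMEFF2. These groups overlapped, and the log2 difference of -1.43 (SE 0.456) lay at the threshold (adjusted p = 0.0485) and was lost in 15 of 21 alternatives.

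Genes with the most alike pattern over the 4 group means were named by the smallest root mean square difference of centred log2 means among 11157 genes, from 4 values per gene. For CDKN3 these were ARHGEF39 (0.0117), SMC2 (0.0174) and PSRC1 (0.0244). For CDKN1A they were CAPS2 (0.0089), RILP (0.0108) and EEPD1 (0.0184), and for BTG2 they were KIAA0895 (0.0183), SOBP (0.0206) and DPYSL2 (0.0291). CDKN2C was nearest to G2E3 (0.0431), GJC1 (0.0662) and CNTLN (0.0681). From the summed columns only, MDM2 was nearest to AMOTL1 (0.116), TCF12 (0.173) and TUBA1A (0.174); the TCF12 pattern also rests on a second column, which gave 719 CPM against 55.2 CPM in the first for replicate 2 of sh_TMEFF2 without DHT.

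Regulators and relatives of p53 were examined next. CHEK1 and CHEK2, the checkpoint kinases, rose with DHT in sh_TMEFF2 by 0.87 and 0.85 on the log2 scale, and passed the adjusted p at 0.58 and 0.50 in sh_scramble. On the summed columns edgeR called none of the genes of this list named here in sh_scramble, where DESeq2 called 1 of the list higher. From the first columns alone edgeR called CHEK1 and CHEK2 higher there (both 0.61, adjusted p = 0.012 and 0.0229). By library size 1 of the list was called lower. The shares of all genes called higher were 3.28% in sh_TMEFF2 and 5.45% in sh_scramble. With DHT in sh_scramble, CREBBP, TP53BP1 and USP7 passed the adjusted p alone at -0.56, -0.24 and 0.20. EP300, TP73, ATM, ATR, MDM4 and PPM1D lay between -0.35 and 0.12 there. TP63 had at most 9 counts and was not tested. The INK4 genes CDKN2A and CDKN2B, at 3.69 to 6.42 and 1.8 to 3.36 CPM in the group means, were not called by edgeR or DESeq2 in any comparison, although with edgeR 1 of them was called higher with DHT in sh_scramble without replicate 1 of the group with DHT. CDKN2B stood at 0.91 there with all libraries (adjusted p = 0.0834).

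Of 36 textbook p53 targets outside the 9 genes, 34 were tested, and 9 were called lower with DHT in sh_scramble and 0 higher, against the 6.45% and 5.45% given above. Their median log2 fold change was -0.35, beside -0.01 for all genes. The 2 largest were SESN1, a sestrin that restrains mTORC1, at -1.43 (SE 0.162, adjusted p = 3.85e-05), and TP53INP1, which promotes p53-dependent death, at -1.21 (SE 0.131, adjusted p = 2.69e-05). In sh_TMEFF2 edgeR called none of the 34, with a median of -0.05 beside -0.02 for all genes, although 17 had an unadjusted p under 0.05, and DESeq2 also called 0 in either direction. The difference of the responses was called by edgeR for 5 of the 34, all higher in sh_TMEFF2, against 1.65% of all genes higher and 3.29% lower. Over the alternatives 3 to 10 were higher, with 10 higher and 1 lower by DESeq2. The 5 were SESN1 1.05, DDB2 0.78, FDXR 0.73, TP53INP1 0.71 and ZMAT3 0.33. The median difference was 0.34 beside 0.01 for all genes. SESN1 shows the pattern in the libraries: 424, 363 and 320 CPM fell to 158, 137 and 116 CPM in sh_scramble, and 283, 240 and 216 CPM stood beside 233, 180 and 156 CPM in sh_TMEFF2. Between the lines with DHT 1 target was called, TP53INP1, higher by 0.78 (adjusted p = 0.00135), a share near the 3.03% of all genes, and 3 were called without replicate 2 of sh_scramble or replicate 3 of sh_TMEFF2 with DHT. Without DHT edgeR called none, although 9 had an unadjusted p under 0.05, and DESeq2 called 1 lower.

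**Figure D4:**
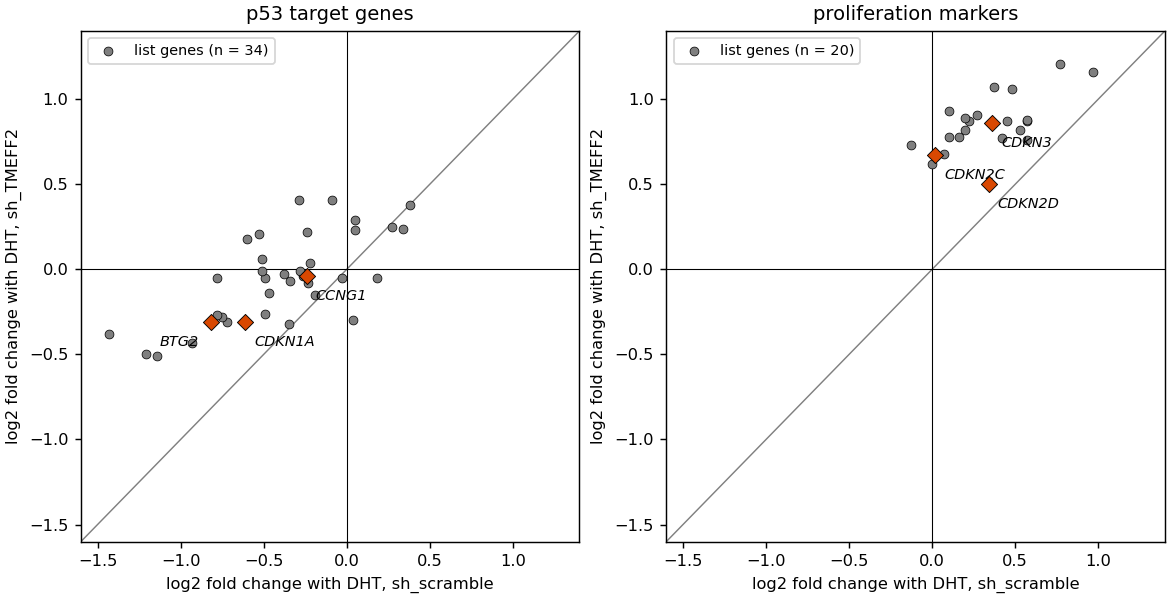
Log2 fold change with DHT in sh_TMEFF2 (vertical) against sh_scramble (horizontal) for 34 p53 targets and 20 proliferation markers (grey). Diamonds are CDKN1A, BTG2 and CCNG1 beside the p53 targets and CDKN3, CDKN2C and CDKN2D beside the proliferation markers. MDM2, also a p53 target, is not drawn. From the summed columns it had -0.45 in sh_scramble and -1.39 in sh_TMEFF2, the latter -0.04 from the first columns alone. The axes share no samples and the grey line marks equal responses. The p53 targets have medians of -0.35 in sh_scramble and -0.05 in sh_TMEFF2, and the proliferation markers 0.32 and 0.87.

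Genes of dividing cells rose with DHT in sh_TMEFF2. All 20 proliferation markers were called higher with DHT in sh_TMEFF2, from 0.62 to 1.21 with a median of 0.87, led by RRM2 (1.21) and CDC6 (1.16). In sh_scramble 2 of 20 were called, CDC6 (0.97) and RRM2 (0.77), with a median of 0.32. The shares of all genes called higher were 3.28% in sh_TMEFF2 and 5.45% in sh_scramble. In sh_scramble 18 of the 20 had a positive log2 fold change. At the adjusted p alone 8 of the 20 were higher there, against 2217 of 15419 genes. In sh_scramble 6 were called without replicate 2 of the group without DHT or replicate 1 of the group with it. Leaving out replicate 1 of sh_TMEFF2 without DHT left 14 of the 20 called. For none of the 20 was the difference of responses called by edgeR, although 12 had an unadjusted p under 0.05. DESeq2 called 5 of them, and edgeR 9 without replicate 3 of sh_TMEFF2 without DHT. Their summed level was 1436, 1784 and 1622 CPM in sh_scramble without DHT, 1853, 2308 and 2110 CPM with DHT, 1401, 1399 and 1906 CPM in sh_TMEFF2 without DHT and 2476, 2933 and 3223 CPM with DHT. CDKN3 and CDKN2C were thus highest in the group where these markers were highest, and whether the change in CDKN3 or CDKN2C is separate from the share of dividing cells was not tested: in bulk RNA more cells with a transcript and more transcript per cell cannot be told apart.

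Among 9 tested CDKs and cyclins that the inhibitors bind, 4 rose with DHT in sh_TMEFF2: CDK1 (1.05), CCNA2 (1.02), CDK2 (0.79) and CCNE2 (0.72), against 3.28% of all genes. In sh_scramble CDK2 rose (0.63), against 5.45% of all genes called higher. This call was lost in 3 of 22 alternatives, with values down to 0.54. Of this list, 0 were called higher there by library size and 2 by DESeq2. CDK1 was higher in sh_TMEFF2 with DHT by 0.60 and its response differed by 0.65. The first call fell below 1.5-fold without replicate 1 or 3 of sh_scramble or replicate 3 of sh_TMEFF2 with DHT (0.52 to 0.56), and the second was lost in 10 of 20 alternatives. CDK6, a partner of the INK4 proteins at under 5 CPM, was lower by 2.14 there on the sum, but by 1.67 (adjusted p = 0.202) from the second columns alone. Of 11 genes of p27 and p21 turnover, SKP2 (0.68), CKS1B (0.81) and DTL (0.85) rose with DHT in sh_TMEFF2, and DTL (1.04) in sh_scramble, against the same 3.28% and 5.45% of all genes; SKP2 and CKS1B bring p27 to its ubiquitin ligase and DTL targets p21. None of the 3 pocket proteins was called by edgeR with all libraries in sh_scramble or sh_TMEFF2, where 1 and 2 had an unadjusted p under 0.05. The shares of all genes called higher were 5.45% and 3.28%. Without replicate 3 of sh_TMEFF2 without DHT, 1 pocket protein was called higher with DHT in sh_TMEFF2.

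Relatives of BTG2 and CCNG1 were examined next. BTG1 was lower in sh_TMEFF2 than in sh_scramble without DHT (-0.87, adjusted p = 0.0143) and with DHT (-0.93, adjusted p = 0.000737), and BTG3 was higher in sh_TMEFF2 with DHT (0.62) and rose with DHT there (0.63). The BTG1 call without DHT was lost without replicate 1 or 2 of sh_scramble or replicate 1 of sh_TMEFF2 (adjusted p up to 0.0725), while that with DHT held in all 22 alternatives. The BTG3 difference was lost without replicate 1 of sh_scramble or replicate 1 or 3 of sh_TMEFF2 with DHT (adjusted p up to 0.0911), and its rise without replicate 2 of sh_TMEFF2 without DHT or replicate 3 with it, and from the first columns (adjusted p up to 0.101). CCNG2 fell with DHT in sh_scramble by 1.02 on the log2 scale, and its response differed between the lines by 0.73; CCNI differed by 0.36. Of 14 tested immediate-early genes, the class to which BTG2 also belongs, KLF4 (1.44) and KLF6 (0.81) rose with DHT in sh_scramble, against 5.45% of all genes, and 5 were called without replicate 3 of sh_scramble without DHT. In sh_TMEFF2 1 was called lower, against 1.6%: EGR1 at -1.34 (adjusted p = 0.0285), from 10 to 35 counts per library, a call lost in 6 of 19 alternatives. Of these, 4 left out 1 library of sh_TMEFF2, replicate 1 or 3 without DHT or replicate 2 or 3 with it (adjusted p up to 0.123), and DESeq2 called no gene of the list lower there. With DHT, KLF4 (-0.98), NR4A1 (-0.86) and KLF6 (-0.67) were lower in sh_TMEFF2, against 3.74% of all genes. The KLF6 response differed by -0.79.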

How the data were processed

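RNA-seq libraries of LNCaP cells (75 bp reads) were pseudo-aligned by the authors with kallisto 0.42.3 to the GRCh38 transcriptome after trimming, and gene-level estimated counts, scaled by transcript length in tximport and carrying no strand, were deposited. The table holds 24 columns, 2 per library, with 0 columns left unassigned. Columns of a library were summed and rounded here. The 2 columns differed by a median chi-square ratio of 2.48 to 2.77, replicates by 4.91 to 6.3. Genes were filtered with filterByExpr (minimum count 10, minimum total 15) and fitted with edgeR 4.0.16 (R 4.3.3) using TMM, 1 coefficient per group over all 12 libraries, and Benjamini-Hochberg adjustment over all genes. DESeq2 1.42.0, limma-voom (limma 3.58.1), other filters and scalings, single columns, a replicate block and leaving out each library were alternatives. The fits were tested on simulated data. The genes and the 15 gene lists were chosen with earlier results of these data known. Named genes were the 9, TMEFF2, at most 2 called per list and direction by fold, any list with 5 or fewer calls, p53 regulators and 3 nearest patterns, of which some are not reported here. Positions follow GENCODE 44. Opposite-strand genes overlap CDKN1A (DINOL), CDKN1B (GPR19), CDKN2C (an unnamed gene), MDM2 (CPM and an unnamed gene) and TMEFF2 (CAVIN2-AS1), and 2 unnamed genes overlap MDM2 on its own strand. These overlaps are of whole gene spans, and overlap of exons was not examined. Without strand, reads from sequence shared by exons on opposite strands cannot be told apart.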

Additional observations from a re-analysis of the deposited data

Results flagged for a closer look

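Each of these genes had a response to DHT that differed between the lines by a test of the difference itself, with the other line as reference (sh_TMEFF2 response minus sh_scramble response, log2 scale, edgeR quasi-likelihood). BTG2 differed by 0.51 and CCNI by 0.36. Among the p53 targets SESN1 differed by 1.05, DDB2 by 0.78, FDXR by 0.73, TP53INP1 by 0.71 and ZMAT3 by 0.33. CCNG2 differed by 0.73, CDK1 by 0.65 and KLF6 by -0.79. The calls for SESN1, FDXR and CCNG2 held in all 20 alternatives and that for DDB2 in 19 of 20. The others were lost in between 9 (CCNI) and 14 (ZMAT3) of 20 alternatives, most of them with 1 library left out.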

How the results depend on the processing

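The 9 genes' single results were refitted under the alternatives in 967 cases: 891 kept direction and side of the threshold, 35 lost and 16 gained a call, and 25 changed sign, and 34 of 36 group means by library size alone stayed within 1 SD. The values that changed sign were those of CDKN1C with DHT in sh_scramble (-0.06 from the first columns, -0.30 to 0.49 without 1 library), CDKN2C there (-0.05 by library size, -0.04 from the second columns, -0.06 to 0.13 without 1 library), CDKN1B with DHT in sh_TMEFF2 (0.00 by DESeq2, 0.03 from the second columns, -0.03 to 0.03 without 1 library), CCNG1 there (-0.07 to 0.01), CCNG1 between the lines with DHT (-0.02 to 0.07) and CDKN2D there (0.00 by DESeq2, 0.05 by library size, 0.02 among genes over 5 CPM, 0.05 from the second columns, -0.10 to 0.13 without 1 library). The MDM2 difference of responses, -0.94 from the sum, was 0.53 from the first columns. Outside the 9 genes, the difference of responses of TMEFF2 was -0.05 from the first columns and -0.23 to 0.25 without 1 library.

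Counts of the 9 genes moved as follows. With DHT in sh_scramble 4 were lower at the adjusted p alone, and 1 to 2 without 1 library. In sh_TMEFF2 0 were lower from the first columns and 2 at the adjusted p alone, and 1 to 3 were higher without 1 library. Between the lines without DHT 0 were higher from the first columns or with the 6 libraries alone, and 0 to 1 without 1 library. With DHT 1 was higher at the adjusted p alone, and 0 were lower by limma-voom, by library size, among genes over 5 CPM, with the 6 libraries alone or from either column, and 0 to 1 without 1 library. For the difference of responses 2 were higher by DESeq2, library size, genes over 5 CPM and the replicate block, 0 from the second columns and 0 to 1 without 1 library, while 1 was lower by DESeq2, without a filter, with the block and from the second columns, and 0 to 1 without 1 library.

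Over all genes, the adjusted p alone gave 2217 higher and 1940 lower with DHT in sh_scramble, 1209 and 804 in sh_TMEFF2, 96 and 76 between the lines without DHT, and 1068 and 1402 with DHT. Among genes over 5 CPM 653 were lower in sh_scramble. Between the lines without DHT DESeq2 called 97 higher and 83 lower, no filter 88 and 69, the 6 libraries alone 27 and 19, the replicate block 73 and 71, the first columns 20 and 26 and the second 27 and 23, and fits without 1 library 14 to 73 higher and 17 to 44 lower, lowest without sh_scramble replicate 1 and sh_TMEFF2 replicate 2. Fits without 1 library gave 103 to 335 lower with DHT in sh_TMEFF2, lowest without its replicate 3 with DHT. For the difference of responses DESeq2 called 479 higher, the block 432, the first columns 169 and the second 148, and fits without 1 library 127 to 294 higher and 329 to 471 lower, lowest without sh_scramble replicate 2 without DHT and replicate 1 with it. The labels tie no replicate number to a day or transduction, and the main fit did not use the number as a block. Deviations of same-numbered libraries correlated between -0.002 and 0.169. In 10 of 12 cases a library correlated best with its own number, among them all cases within a line. The main fit leaves any effect that same-numbered libraries share in the spread. The block brought calls for CDKN2C (0.66) and, from the summed columns, MDM2 (-0.90) in the difference of responses. The cause of these shifts was not tested. CDKN1C rests on 6 to 40 counts per library. Leave-one-out fits leave 2 libraries in a group.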
